A study of Mus musculus with 8 samples.

Results

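The rows examined were those that the deposited comparison of *Hdac3* knockout (KO) with empty vector (EV) cells gives a gene type other than protein-coding, 302 of 8278 rows in all. They were chosen by that gene type alone, though with earlier results of these data known, and rows of the mitochondrial genome were left out. They comprised 108 pseudogenes, 100 long intergenic non-coding RNAs (lincRNAs), 58 processed transcripts, 29 antisense RNAs, 3 polymorphic pseudogenes, 2 sense-intronic RNAs, 1 immunoglobulin variable gene (*Ighv14-4*) and 1 row typed as a constant gene (*Trac*, the constant part of the T cell receptor alpha chain). A processed transcript is a spliced RNA without an open reading frame, and an antisense RNA is transcribed from the strand opposite a coding gene.

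The cells were MCECs, a purchased mouse cardiac endothelial cell line, transduced with lentivirus that carried either *Hdac3* guide RNAs with Cas9 (KO, n = 4 libraries) or the same vector without a guide (EV, n = 4 libraries). HDAC3 is a histone deacetylase that acts within nuclear receptor co-repressor complexes. The sources used here do not state whether the KO cells were a clone or a pool or, for these libraries, whether they came from separate cultures; replicates of work in vitro are described in general as technical. Each p-value therefore measures the spread between libraries, which may be technical. The read totals of the libraries, recovered as described under processing, were 15775327 to 21262575 in EV and 19356714 to 22255684 in KO. They may not be all reads sequenced. *Hdac3* itself had 1934, 2067, 2055 and 2137 normalized read counts in EV and 1551, 1458, 1489 and 1524 in KO, a log2 fold change of -0.45 (SE 0.035, adjusted p = 1e-13 with edgeR; exact two-sided permutation p = 0.0286, the smallest that 4 against 4 allows). Of 12 endothelial markers the table listed 5, among them *Cd34* at 94.3 and *Eng* at 21.5 FPKM (fragments scaled by gene length and library size) in EV, while *Pecam1* was at 0.00802 and *Kdr* at 0.391. Of 9 fibroblast and mural markers 6 were listed, with *Col1a1* at 373 and *Dcn* at 351 FPKM in EV. The table lists only genes that the depositors' own test had selected, so a marker not listed may be expressed and unchanged. Over the listed markers alone, FPKM summed to 116 to 118 in EV and 88.2 to 90.7 in KO for the endothelial list. For the fibroblast and mural list the sums were 778 to 799 and 575 to 593. In each list 1 marker rose, *Pecam1* (0.00802 to 0.0569 FPKM) and *Col1a1* (373 to 404 FPKM). The one leukocyte marker listed, *Cd68*, rose from 5.7 to 12.1 FPKM, and the one cardiomyocyte marker, *Myl7*, fell from 5.51 to 1.66. The part of these markers in the results was not tested.

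Long non-coding RNAs are transcribed and in many cases spliced like messenger RNAs but are not known to be translated. Some stay in the nucleus and organize its compartments, some act on neighbouring genes, and others serve chiefly as carriers of small RNAs: the introns of snoRNA host genes are cut into small nucleolar RNAs, which guide the chemical modification of ribosomal RNA, and other hosts are cut into microRNAs. Processed pseudogenes are copies of messenger RNAs that were reverse transcribed and inserted elsewhere in the genome, so their sequence can be nearly identical to that of a working gene.

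The first question was how non-coding rows moved with loss of HDAC3. Of the 302 rows, 139 rose and 154 fell in KO at an adjusted p under 0.01, and 9 did not pass. With library totals left unscaled, 93 rose and 154 fell (30.8% and 51%, beside 32.3% and 49.8% of the whole table). Such calls say little about these rows, since the table lists only genes that the depositors' own test had already selected, and 96.7% of all its rows passed (47.1% higher and 49.6% lower), against 97% of the non-coding rows (46% and 51%). The groups of 4 libraries did not overlap for 246 non-coding rows (81.5%), beside 91.1% of the whole table. The median log2 fold change was -0.25 over the non-coding rows and 0.06 over the whole table. These medians compare rows of unlike level, and the share called lower varied with the mean normalized count. Below 20 counts it was 60% of non-coding and 48.7% of protein-coding rows, and from 20 to 100 counts 54.9% and 67.7%. From 100 to 500 counts it was 45.8% and 67.5%, and from 500 counts 34.9% and 40.7%. As these are bulk libraries, fewer cells of a kind and less RNA per cell cannot be told apart.

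The counts in each direction varied with gene type, and this variation was not tested. Among pseudogenes 62 rose and 39 fell, with a median log2 fold change of 0.32, whereas among lincRNAs 36 rose and 62 fell, with a median of -0.55. The 2 types also differed in level, with a median of 110 normalized counts for pseudogenes and 45.3 for lincRNAs. With library totals left unscaled, 35 pseudogenes rose and 39 fell (32.4% and 36.1%, beside the same 32.3% and 49.8%). For processed transcripts the counts were 26 and 32 (median -0.41), and for antisense RNAs 13 and 16 (median -0.43). In both types these were 44.8% and 55.2%, near the 47.1% and 49.6% of the whole table. Of the 16 antisense rows that fell, 10 had a mean of at least 10 counts. Both sense-intronic rows rose, but *RP24-511K23.3* averaged at most 8.14 counts in a group and lost its call without EV replicate 2, KO replicate 3 or KO replicate 4. All 3 polymorphic pseudogenes fell. The spread of fold changes within each type is shown in the plot by gene type.

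**Figure D1:**
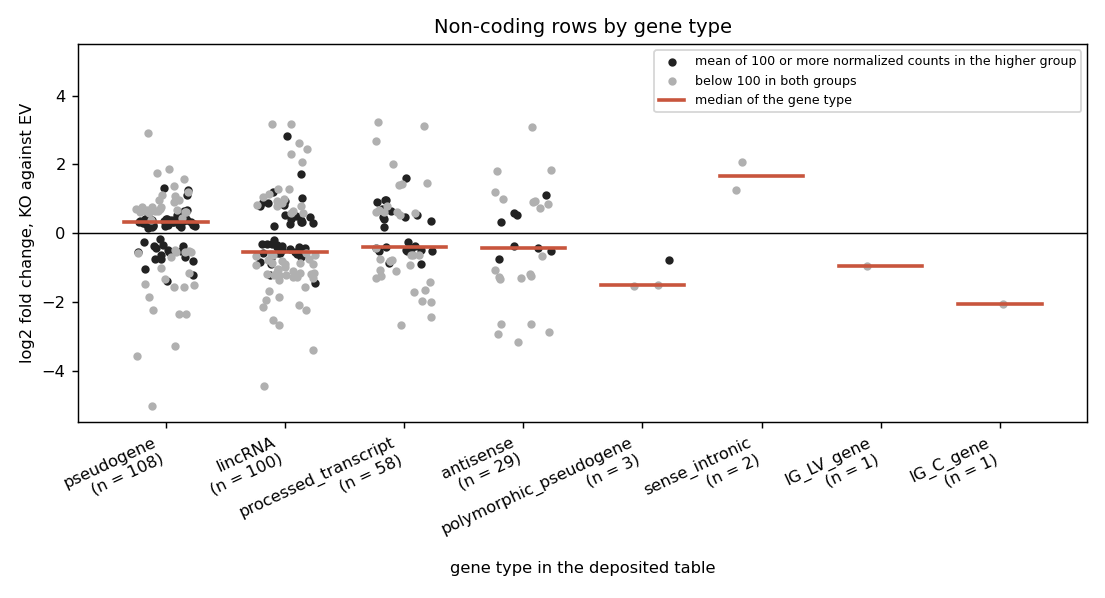
Log2 fold change of each of the 302 non-coding rows, KO against EV, by gene type. Black points had a mean of 100 or more normalized counts in the higher group, grey points less, and red bars are medians, which lie at 0.32 for pseudogenes and -0.55 for lincRNAs; all points beyond 2 in either direction are grey except that of *Lincenc1*.

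Large folds were frequent among these rows, and so were low counts. A log2 fold change of at least 1 with a call was found for 40 rows that rose (13.2%, beside 4.43% of the whole table) and 70 that fell (23.2%, beside 8.36%). Non-coding rows had a median of 59.7 normalized counts, against 846 for protein-coding rows, and a median level of 2.17 FPKM in EV and 2.22 in KO, against 13.5 and 12.3. Among rows with a mean below 20 counts, 87.1% of the 85 non-coding rows and 92.8% of the 349 protein-coding rows differed by at least 1 on the log2 scale. From 20 to 100 counts the shares were 26.4% of 91 and 36.1% of 570, from 100 to 500 counts 10.8% of 83 and 11.7% of 1956, and from 500 counts 6.98% of 43 and 3.74% of 5101. The largest changes named below were taken from rows whose higher group averaged 100 normalized counts or more, a floor that members of the lists and copies of coding genes did not have to pass.

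Few rows carried most of the non-coding reads. All 302 rows together took 1.505%, 1.532%, 1.39% and 1.403% of the recovered read totals of the EV libraries and 1.664%, 1.822%, 1.797% and 1.711% in the KO libraries. The mean rose from 1.457% ± 0.0714 to 1.749% ± 0.0737 (SD, n = 4 each; exact two-sided permutation p = 0.0286, the smallest possible), and the groups did not overlap. Without the 5 rows with the most reads the difference turned, with 0.387% in EV and 0.37% in KO (exact permutation p = 0.0286, n = 4 each).

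The largest of these 5 was *Yam1* (chr17:39846958-39848788 on the plus strand, a row typed as lincRNA), which took 56.8% to 63.6% of all non-coding reads in a library. In GENCODE M21 99.51% of its exonic bases are shared with genes on the opposite strand (*AY036118* and the ribosomal RNA gene CT010467.1), so its reads cannot be told from ribosomal RNA. It had 168871, 176249, 147776 and 149584 normalized counts in EV and 201969, 235058, 229539 and 216135 in KO, a log2 fold change of 0.46 (SE 0.041, adjusted p = 2.2e-12). *Gm26917*, which lies just upstream (chr17:39845074-39846245), rose from 493 ± 30.9 to 959 ± 43.6 (SD, n = 4 each; log2 fold change 0.96, adjusted p = 1.8e-18). The others of the 5 were *Malat1* and 3 pseudogenes described below. The plot of read shares sets *Yam1* beside them in each library.

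**Figure D2:**
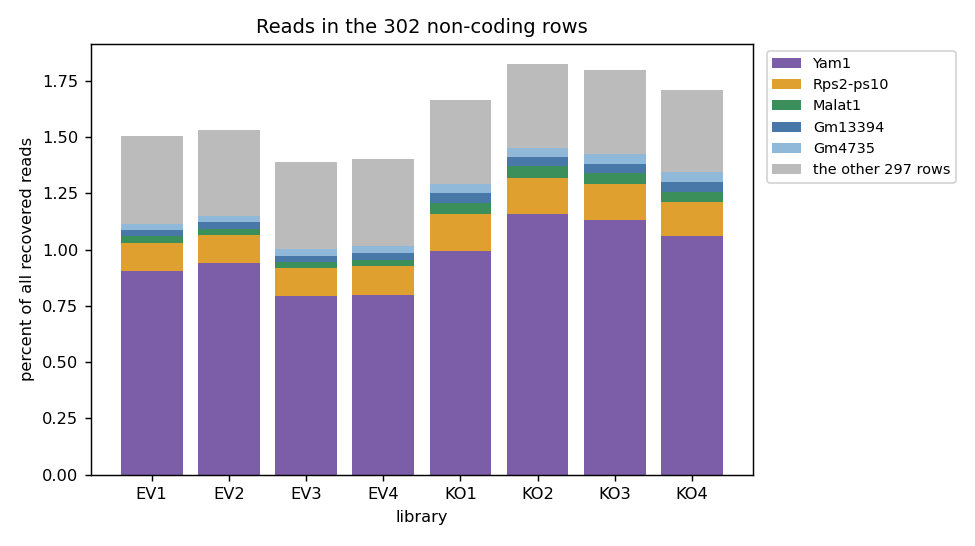
Percent of the recovered read total of each library (EV1 to EV4, KO1 to KO4) that fell in the 302 non-coding rows, stacked by row. *Yam1* makes up the largest block in each of the 8 libraries (0.792 to 1.16% of that total), and the grey block of 297 rows is slightly lower in KO (0.365 to 0.373%) than in EV (0.381 to 0.39%).

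Of the hosts of small nucleolar RNAs that the table held, most rose. These were 10 of the 23 of a list drawn up from textbook knowledge, though with earlier results of these data known, as were the other lists below. Of the 10, 9 rose and 1 fell (8 and 1 with library totals left unscaled), beside 47.1% and 49.6% of the whole table, with a median log2 fold change of 0.64 beside 0.06 for the whole table. *Gas5*, whose introns carry several C/D box snoRNAs and whose RNA accumulates in growth-arrested cells, had 1214, 1171, 1125 and 1241 normalized counts in EV and 1881, 1995, 2016 and 1793 in KO. All 4 KO libraries lay above all EV libraries, and the log2 fold change was 0.69 (SE 0.04, adjusted p = 2e-17). *Snhg1*, host of U22 and related snoRNAs, had 957, 908, 924 and 898 in EV and 1679, 1819, 1867 and 1610 in KO (log2 fold change 0.92, SE 0.043, adjusted p = 5.3e-20). *Gm11974*, named *Snhg15* in RefSeq and holding *Snora9*, rose most of the list, from 120, 113, 119 and 93.6 to 313, 345, 361 and 322 (log2 fold change 1.6, SE 0.089, adjusted p = 8.9e-18). The groups of these 3 genes did not overlap.

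Further hosts moved in the same direction. *Snhg5*, host of *Snord50a* and *Snord50b*, rose from 183 ± 15.1 to 355 ± 35.9 normalized counts (SD, n = 4 each; log2 fold change 0.96). *Snhg12*, with *Snora16a*, *Snora44*, *Snora61* and *Snord99* in its interval, rose from 165 ± 12.9 to 287 ± 31.5 (0.81). Smaller log2 fold changes were those of *Snhg7* (0.59, with overlapping groups and under 100 counts), *2810008D09Rik* (*Snhg20* in RefSeq, 0.53), *9430008C03Rik* (*Snhg17* in RefSeq, 0.36) and *Snhg4* (0.27). *Snhg4* lost its call with library totals left unscaled (0.15) and without EV replicate 4 or KO replicate 3. *Snhg18* went the other way. It hosts *Snord123* and had 340, 339, 342 and 305 counts in EV and 222, 199, 230 and 242 in KO, with no overlap (log2 fold change -0.57, SE 0.075, adjusted p = 2.3e-08). In GENCODE M21 the small RNAs themselves make up part of some of these rows, from 5.35% of the exonic bases of *9430008C03Rik* to 19.6% of those of *Snhg12*. GENCODE M21 gives the identifier of the *Snhg7* row to the snoRNA *Snora43*, so no such share is given for *Snhg7*. Whether reads came from spliced host or small RNA was not tested.

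The annotation gave other hosts that the list did not hold. GENCODE M21 places a snoRNA or scaRNA on the same strand inside 13 non-coding rows, of which 11 rose, 1 fell (*Snhg18*) and 1 did not pass (*2700038G22Rik*, log2 fold change 0.29), beside the same 47.1% and 49.6% of the whole table. *2410006H16Rik*, which holds *Snord49a*, *Snord49b* and *Snord65*, had 1332, 1153, 1279 and 1360 counts in EV and 1969, 2024, 2134 and 1881 in KO, with no overlap (log2 fold change 0.64, SE 0.042, adjusted p = 9.4e-16). *1110038B12Rik*, which holds *Snord52*, rose from 1408 ± 61.4 to 1893 ± 96.4 (SD, n = 4 each; log2 fold change 0.43). With both sources joined there were 15 hosts, of which 13 rose and 1 fell (11 and 1 with unscaled totals). The mature snoRNAs were not measured here.

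Long RNAs of the nucleus moved in both directions. Of 20 abundant or structural long non-coding RNAs listed, the table held 5. Among these 3 rose and 2 fell, beside 47.1% and 49.6% of the whole table. *Malat1*, a long unspliced RNA of nuclear speckles (chr19:5795690-5802672, minus strand), had 5160, 5118, 4647 and 4587 normalized counts in EV and 9522, 10765, 9834 and 9655 in KO. The KO libraries were all above the EV libraries, with a log2 fold change of 1.03 (SE 0.036, adjusted p = 9.7e-24). *Neat1*, the scaffold of paraspeckles and the neighbour of *Malat1* on the same strand (chr19:5824708-5845478), had 2162, 1931, 2049 and 1883 counts in EV and 1331, 1508, 1321 and 1323 in KO. Its groups did not overlap either, and its log2 fold change was -0.55 (SE 0.042, adjusted p = 8e-14). The 2 neighbours thus moved in opposite directions.

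The other 3 of this list were *1700020I14Rik*, *Pvt1* and *Tug1*. *1700020I14Rik*, named *Oip5os1* in RefSeq and also known as Cyrano, fell from 3276 ± 125 to 2318 ± 73.6 counts (SD, n = 4 each; log2 fold change -0.50, SE 0.032, adjusted p = 4.5e-16). *Pvt1*, the long RNA beside the *Myc* gene, had 162, 157, 199 and 192 counts in EV and 316, 322, 314 and 355 in KO (log2 fold change 0.87, SE 0.082, adjusted p = 9.8e-12). Neither pair of groups overlapped. *Tug1* rose by 0.19 on the log2 scale (adjusted p = 9e-07), a call lost with library totals left unscaled (0.07, adjusted p = 0.026).

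**Figure D3:**
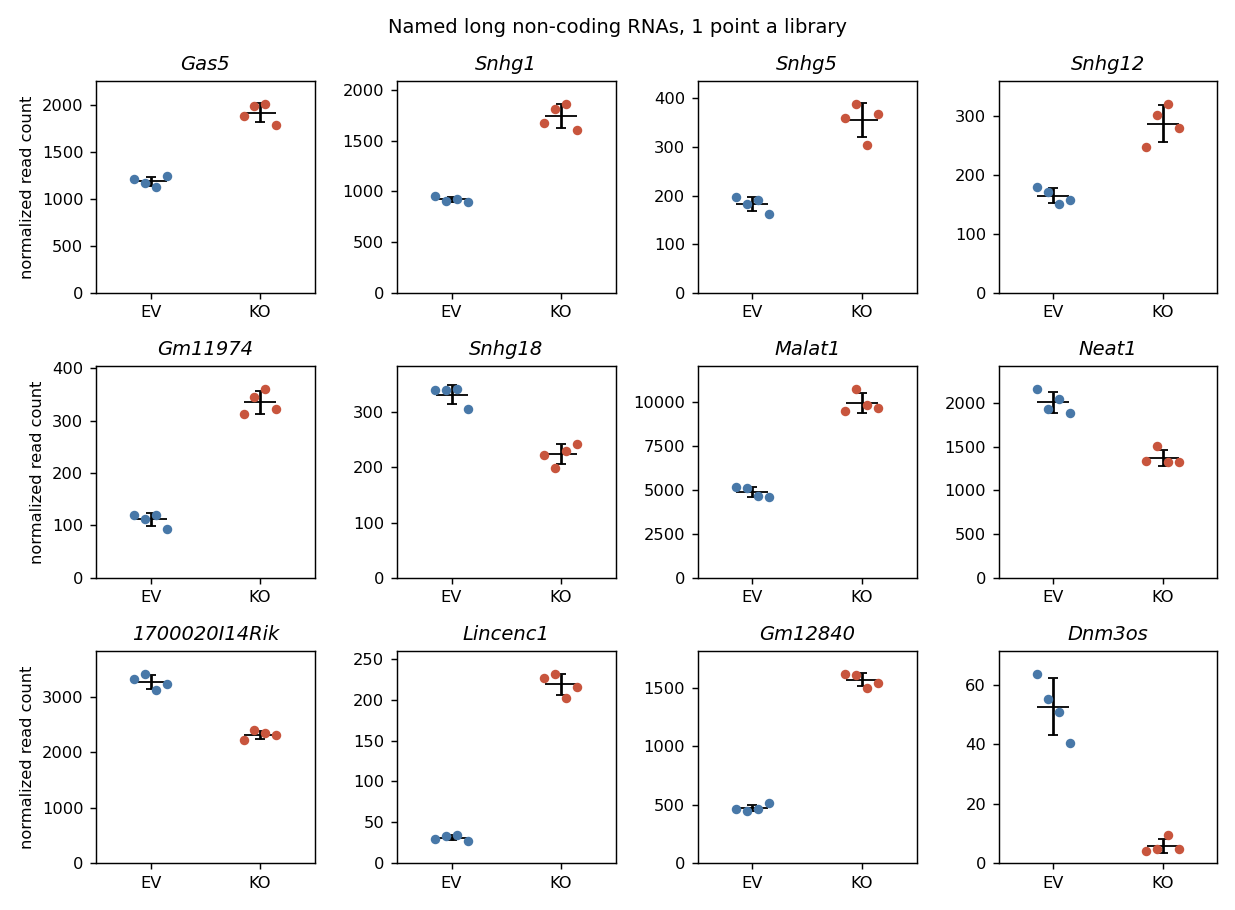
Normalized read counts of 12 long non-coding RNAs in each of the 4 EV and 4 KO libraries (1 point a library), with the mean and SD of each group in black and axes from 0. The groups do not overlap in any panel; *Gas5*, *Snhg1*, *Snhg5*, *Snhg12*, *Gm11974*, *Malat1*, *Lincenc1* and *Gm12840* are higher in KO, and *Snhg18*, *Neat1*, *1700020I14Rik* and *Dnm3os* are lower.

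Hosts of microRNAs were looked up because microRNAs are cut from the transcript of their host. RefSeq places a hairpin on the same strand inside 6 non-coding rows, and 4 of these rows hold 14 mature microRNAs. Of these 8 are given here from RefSeq (GRCm38.p6), without the other arm of 6 hairpins, with the seed, bases 2 to 8, in capitals to show which share it.
miR-199a-5p, in *Dnm3os*: cCCAGUGUucagacuaccuguuc
miR-199a-3p, in *Dnm3os*: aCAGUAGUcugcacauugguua
miR-214-3p, in *Dnm3os*: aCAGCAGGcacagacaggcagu
miR-29b-3p, in *A330023F24Rik*: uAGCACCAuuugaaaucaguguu
miR-29c-3p, in *A330023F24Rik*: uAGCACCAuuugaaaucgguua
miR-22-3p, in *Mir22hg*: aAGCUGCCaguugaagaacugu
miR-99a-5p, in *2810055G20Rik*: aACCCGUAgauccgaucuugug
let-7c-5p, in *2810055G20Rik*: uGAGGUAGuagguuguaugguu
Of the 8, miR-29b-3p and miR-29c-3p share the seed AGCACCA, and the other 6 each have a seed of their own. The levels of the mature microRNAs were not analysed here.

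*Dnm3os*, the antisense RNA of *Dnm3* from which miR-199a and miR-214 are cut (chr1:162217623-162225550, plus strand), fell most among the host and developmental rows. It had 63.8, 55.3, 51 and 40.6 normalized counts in EV and 4.19, 4.55, 9.37 and 4.67 in KO. Every KO library was below every EV library, and the log2 fold change was -3.15 (SE 0.276, adjusted p = 1.7e-12). *A330023F24Rik*, host of miR-29b-2 and miR-29c, fell from 3.12 to 6.63 counts in EV to at most 1.87 in KO (log2 fold change -2.23, adjusted p = 0.0035). *Mir22hg* fell by 0.36 on the log2 scale, from 120 ± 3.12 to 93.5 ± 7.46 counts (SD, n = 4 each), a call lost with DESeq2 (adjusted p = 0.01) and without KO replicate 2. *2810055G20Rik*, named *Mir99ahg* in RefSeq, rose from 110 ± 15.9 to 152 ± 20.4 (log2 fold change 0.48), with overlapping groups. *2810008D09Rik*, the snoRNA host named above, also holds *Mir6516*. *Gm20603*, around *Mir1900*, had at most 0.883 counts in EV and 1.87 to 4.69 in KO.

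Long RNAs listed as developmental were also read from a fixed list. The table held 6 of 23, of which 2 rose and 4 fell, beside 47.1% and 49.6% of the whole table. *Lincenc1* (*Lncenc1* in RefSeq, chr13:97434970-97497007), a lincRNA named for embryonic stem cells, rose most of all rows that passed the floor of 100 counts. It had 29.5, 33.2, 34.3 and 27.4 counts in EV and 227, 232, 203 and 216 in KO (log2 fold change 2.82, SE 0.125, adjusted p = 1.3e-20). *Linchoxa1* (*Halr1* in RefSeq), from the *Hoxa* cluster, had at most 15 counts, and its call (log2 fold change 1.30) was lost with DESeq2, with unscaled totals and without EV replicate 1, EV replicate 4 or KO replicate 3. Those that fell were *Dnm3os*, *Emx2os*, *Dlx6os1* and *RP24-459A4.1*. *Emx2os* had 36.6, 29.8, 34.3 and 39.7 counts in EV and 20.9, 10.9, 27.2 and 8.4 in KO (log2 fold change -1.07, SE 0.259, adjusted p = 2.8e-04). *Dlx6os1* had at most 5.53 counts in any library. Of 11 imprinted RNAs only *Kcnq1ot1*, which silences genes in cis on the paternal chromosome, was listed. It rose from 28.9 ± 7.02 to 53 ± 8.22 counts (SD, n = 4 each; log2 fold change 0.90, adjusted p = 8.7e-05), and none of the 6 RNAs of X inactivation was listed.

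Most of the other long RNAs with the largest changes are little described. *Gm12840* (chr4:117700188-117700923) had 463, 442, 464 and 511 counts in EV and 1619, 1614, 1500 and 1545 in KO (log2 fold change 1.73, SE 0.046, adjusted p = 4.9e-27). *4930461G14Rik* rose from 108 ± 13.3 to 244 ± 10.8 (log2 fold change 1.18). Both had groups that did not overlap. *Gm26578* (chr8:32008504-32015759) had the largest fall of the rows that passed the floor, from 261, 321, 297 and 314 counts to 105, 127, 116 and 90.5 (log2 fold change -1.44, SE 0.097, adjusted p = 1.4e-15). It shares 10.4% of its exonic bases with the opposite strand of *Nrg1*, which encodes a ligand of ErbB receptors and had a log2 fold change of -1.40. *9930014A18Rik* (-0.89, with 35.1% of exonic bases opposite *Fam84b*), *1810019D21Rik* (-0.87) and *C030037D09Rik* (-0.82) also fell. *C030037D09Rik* went from 128 ± 27.4 to 71.7 ± 12.3 counts (SD, n = 4 each). The sources used here do not say whether strand was used in counting, so reads of a gene and its antisense partner cannot be told apart where exons are shared. Of the 287 rows found in GENCODE M21, 107 shared exonic bases with another gene, and 88 with one on the opposite strand.

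Pseudogenes were compared with the coding genes they match most closely. Of the 108, 83 matched the transcript of a coding gene over at least 80% of their exonic length at 95% identity or more, and 16 of these were identical over the matched length. The coding gene was itself in the table for 79 of the 83, and in 73 of those pairs both log2 fold changes had the same sign (69 of the 73 pairs in which both rows passed the test). The median absolute difference between the 2 log2 fold changes of a pair was 0.13, and 54 pairs lay within 0.25. Across genes the Pearson correlation of the 2 fold changes was 0.69 (79 pairs, some sharing a coding gene, in the same libraries). How reads with several matches were placed is not given in the sources used here, so a pseudogene's counts may be reads of its coding gene.

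Each of the 3 pseudogenes with the most reads had nearly the log2 fold change of its closest coding match. *Rps2-ps10*, a copy of the ribosomal protein gene *Rps2*, rose from 23816 ± 676 to 31910 ± 952 normalized counts (SD, n = 4 each; log2 fold change 0.42), more counts than *Rps2* itself, which rose from 15012 to 20869 (0.47). *Gm13394*, 99.9% identical to *Gapdh*, had a log2 fold change of 0.66 beside 0.68 for *Gapdh*. *Gm4735* had 0.65 beside 0.65 for its closest coding match, the enolase gene *Eno1b*. *Eno1b* had fewer counts in EV, 3830 beside 5375 for *Gm4735*, and whether it is the source of *Gm4735* was not tested. Of the 18 copies of ribosomal protein genes 15 rose and 3 fell, beside 57.4% and 36.1% of all pseudogenes, and with library totals left unscaled 8 rose and 3 fell.

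Some families of copies moved with their source. *Gm6736*, *RP23-453N3.5* and *Gm12138* are copies of *Akr1b3*, an aldose reductase that reduces glucose to sorbitol, at 99.1 to 99.7% identity. *Gm6736* had 158, 175, 196 and 181 counts in EV and 429, 426, 427 and 476 in KO. The 3 log2 fold changes were 1.30, 1.26 and 1.11, beside 1.24 (SE 0.025) for *Akr1b3*, which had 16215 counts in EV and 38257 in KO. Copies that fell included *Gm6166*, of the fatty acid binding protein gene *Fabp5* (-1.04 beside -1.01), and *Gm10182*, identical to the chromatin protein gene *Hmgn2* (-0.81 beside -0.86). On chromosome 1, 6 rows whose names start with RP23-8J15 match genes of the mitochondrial genome. All 6 had lower means in KO, with log2 fold changes from -1.01 (*RP23-8J15.7*, 44.5 counts in EV and 22.2 in KO) to -0.54 (*RP23-8J15.5*, 91.8 and 63.6), and so did their sources. *RP23-8J15.2*, identical to *mt-Co2*, had 211 counts in EV beside 173 for *mt-Co2*, whereas *mt-Co1*, 99.8% identical to *RP23-8J15.1* (97.6 counts in EV), had 37750.

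In 6 pairs the fold changes of pseudogene and source had opposite signs, and these were singled out after their values were seen. *Gm6548*, at 96.7% identity to the elongation factor gene *Eef1a1*, fell from 177, 220, 196 and 218 counts to 97.4, 90.1, 87.2 and 73.7, with no overlap (log2 fold change -1.23, SE 0.107, adjusted p = 1.4e-12), while *Eef1a1* had 0.17. *Gm10557* and *Gm21811*, at 96.3% and 95.7% identity to the cadherin gene *Cdh11*, did not pass the test (log2 fold changes 0.22 and 0.39, the second from 66.3 to 86.8 counts), while *Cdh11* fell by 1.32. Of the others, 2 are given here, *Gm2830* (-0.56, from 57.8 to 39.3 counts, beside 0.50 for *Rps24*) and *Gm16209* (-2.35, beside 0.46 for *Timm23*, with at most 4.3 counts in a group mean). The plot of pseudogenes against coding genes shows the pairs named here off the diagonal.

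**Figure D4:**
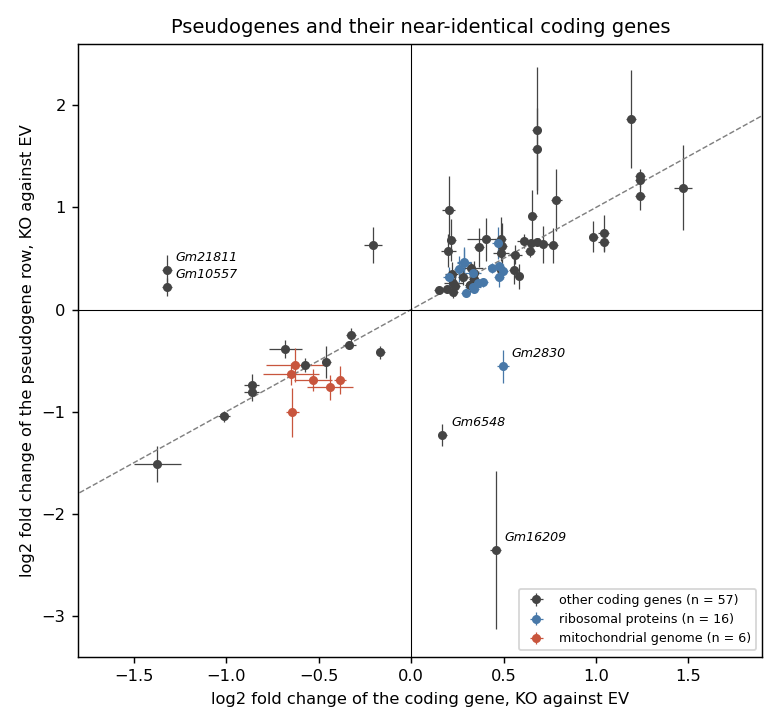
Log2 fold change of 79 pseudogene rows against that of the near-identical coding gene, KO against EV, with standard errors as bars and the line of equality dashed. In 73 pairs both have the same sign, and 6 pairs, of which 5 are labelled, do not.

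Of the 25 pseudogene rows without such a copy 7 rose and 17 fell (28% and 68%), with a median log2 fold change of -0.53. The 83 with a copy had 55 that rose and 22 that fell (66.3% and 26.5%), with a median of 0.35. Of all 8278 rows, 47.1% rose and 49.6% fell, and the difference between the sets was not tested. With library totals left unscaled the pseudogenes called higher went from 62 to 35, and the split by copy was not counted that way. Some of the 25 have another type in GENCODE M21 or RefSeq. One is *Cebpd*, which GENCODE M21 and RefSeq list as the coding gene of the transcription factor C/EBP-delta. It had 690, 715, 713 and 704 counts in EV and 286, 265, 261 and 259 in KO (log2 fold change -1.40, SE 0.057, adjusted p = 9.3e-22). In all, 24 of the 302 rows are protein-coding in GENCODE M21 or RefSeq. *Tctn2*, a component of the ciliary transition zone typed here as processed transcript, is another, and it fell from 288, 292, 290 and 350 to 191, 142, 163 and 170 (log2 fold change -0.89, SE 0.089, adjusted p = 4.2e-11). The 3 polymorphic pseudogenes, which are disrupted in some mouse strains and intact in others, were *H2-T10*, *Oas1b* and *Mx2*. *H2-T10*, a non-classical MHC class I gene, had 893, 852, 874 and 859 counts in EV and 532, 488, 530 and 483 in KO (log2 fold change -0.78, SE 0.048, adjusted p = 2e-16). *Oas1b* and *Mx2*, known as antiviral genes induced by interferon, had log2 fold changes of -1.50 and -1.53 at no more than 56.7 counts in any library. None of the 3 had overlapping groups.

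Each non-coding row was then set beside the coding gene of the table that overlapped it or lay nearest within 5 kb. There were 122 such pairs, and in 94 (77%) both log2 fold changes had the same sign, beside 64.2% of 2885 pairs of neighbouring coding rows. Of the pairs in which both rows passed the test it was 90 of 116 (77.6%), beside 64.5% of coding pairs. For the long RNA types alone the count was 74 of 97 (76.3%). Of 28 long RNAs transcribed away from a coding neighbour (divergent pairs), 23 (82.1%) had the sign of that neighbour, beside 73.5% of divergent coding pairs. Of 43 that overlapped a coding gene on the opposite strand, 34 (79.1%) did, beside 59.4% of such coding pairs. Where both overlapped on the same strand the order was the other way, with 5 of 8 (62.5%) beside 79.5% of coding pairs. The shares were 9 of 13 (69.2%) beside 64.4% for neighbours apart on the same strand and 3 of 5 beside 59.2% for convergent ones. No test was made of these shares. Without the rows known to share exonic bases with another gene 44 of 57 pairs (77.2%) had the same sign. Rows not found in GENCODE M21, for which such sharing is unknown, were kept among these pairs.

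In 4 divergent pairs of rows named in the text the whole gap between the 2 genes lay within 1 window around the start, and the 2 with the shortest gaps are shown by sequence. The windows run from 250 bases before to 50 bases after the RefSeq start of the long RNA (RefSeq, GRCm38.p6, on the strand of the long RNA), and capitals mark the bases between the 2 gene intervals of the table, 126 for *Snhg1* and *Slc3a2* and 123 for *RP24-459A4.1* and *Hand2*.
*Snhg1*, chr19:8723237-8723536, plus strand: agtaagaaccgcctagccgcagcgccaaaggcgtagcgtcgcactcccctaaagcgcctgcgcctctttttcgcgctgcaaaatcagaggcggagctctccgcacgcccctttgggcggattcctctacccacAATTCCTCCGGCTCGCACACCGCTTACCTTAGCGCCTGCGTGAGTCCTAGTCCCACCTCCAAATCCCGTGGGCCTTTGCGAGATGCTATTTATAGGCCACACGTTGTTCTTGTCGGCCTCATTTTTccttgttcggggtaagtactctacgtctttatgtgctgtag
*RP24-459A4.1*, chr8:57320810-57321109, minus strand: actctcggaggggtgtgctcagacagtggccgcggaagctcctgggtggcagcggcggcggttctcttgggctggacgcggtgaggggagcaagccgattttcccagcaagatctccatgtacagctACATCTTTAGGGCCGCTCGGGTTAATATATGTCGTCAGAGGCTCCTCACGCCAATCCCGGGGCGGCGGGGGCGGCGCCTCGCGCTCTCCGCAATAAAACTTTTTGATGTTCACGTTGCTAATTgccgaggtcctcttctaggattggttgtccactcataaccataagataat
*Slc3a2*, the heavy chain shared by several amino acid transporters, had 3834 counts in EV and 7484 in KO (log2 fold change 0.96, SE 0.026), beside 0.92 for *Snhg1*. *RP24-459A4.1*, named *Hand2os1* in RefSeq, is the long RNA known as Upperhand beside *Hand2*, a transcription factor of heart development. It had 436, 400, 432 and 438 counts in EV and 348, 313, 342 and 287 in KO, with no overlap (log2 fold change -0.41, SE 0.066, adjusted p = 1.1e-06). *Hand2* itself fell from 1775 to 1243 (-0.51, SE 0.038). In GENCODE M21 *RP24-459A4.1* shares 7.74% of its exonic bases with *Gm17994* and *Hand2*, and 3.59% on the opposite strand.

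Other pairs of the rows named above followed both patterns. *Snhg18* (-0.57) and *Sema5a* (-1.78), a semaphorin that guides axons, both fell, as did *C030037D09Rik* and *Msi2* (-0.48), and *Tug1* and *Morc2a* (0.58) both rose. Among overlapping pairs *6330403L08Rik* fell from 164, 249, 218 and 207 counts to 84.8, 98.3, 92.8 and 86.8 (log2 fold change -1.21, SE 0.112, adjusted p = 6.6e-12), beside -0.67 for *Pdgfa*, the growth factor gene on the opposite strand, with which it shares 14.7% of its exonic bases. *Emx2os* and *Emx2* (-0.96) both fell too. *Kank4os* went against its partner. It had 59.1, 57.5, 38.5 and 43.3 counts in EV and 103, 107, 108 and 105 in KO (log2 fold change 1.11, SE 0.14, adjusted p = 8.6e-09), whereas *Kank4*, an adaptor of the cytoskeleton, fell from 142 to 26.7 (-2.41, SE 0.14), and the pair shares no exonic bases. *Neat1* (-0.55) and *Frmd8* (0.47), *Tctn2* (-0.89) and *Gtf2h3* (0.24), and *RP23-453N3.5* (1.26) and *Plcl1* (-0.69) also moved in opposite directions.

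**Figure D5:**
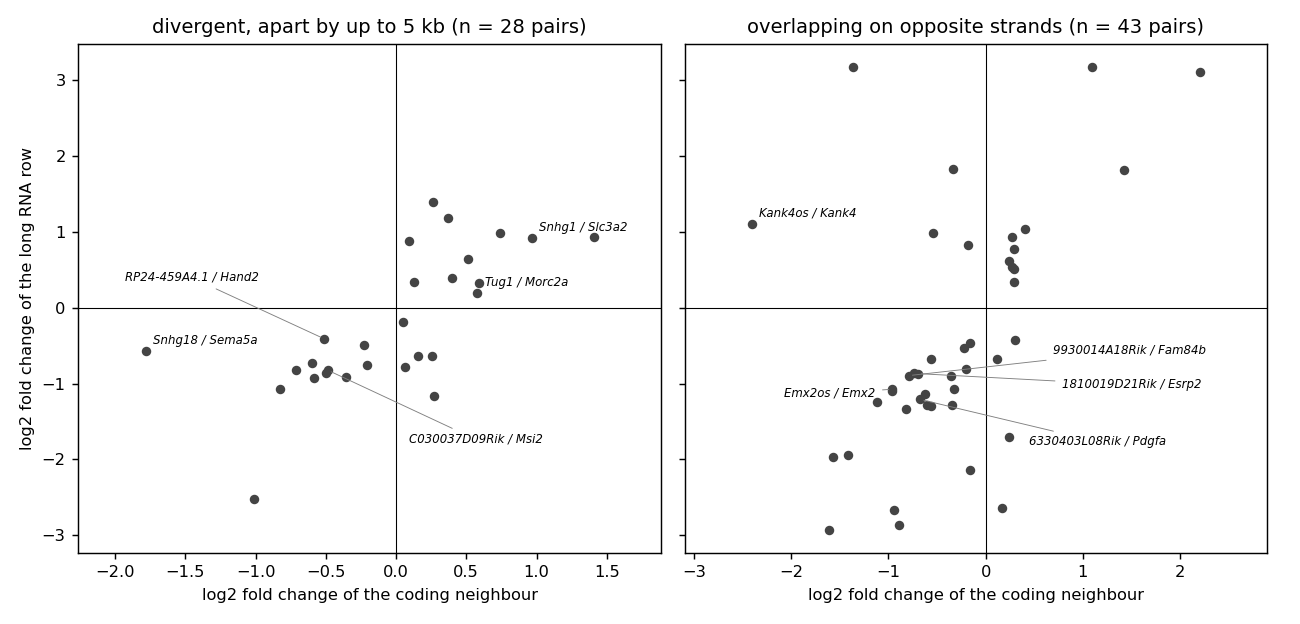
Log2 fold change, KO against EV, of long RNA rows (vertical) against that of the neighbouring coding gene (horizontal), for 28 divergent pairs and 43 pairs overlapping on opposite strands; pairs of rows named in the text are labelled. In 23 and 34 of the pairs both values have the same sign, and *Kank4os* with *Kank4* lies far on the other side.

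Start sites were searched for 4 motifs on both strands of windows from 250 bases before to 50 after each start, which could be matched for 103 of the 302 rows. The E-box CACGTG, bound by MYC and related factors, was in 15 of them (14.6%), beside 7.15% of all 32851 windows, with 7 of 40 that rose and 7 of 61 that fell. The ETS element CCGGAAG was in 12.6% (8.86% of all windows), the interferon element GAAANNGAA in 8.74% (8.56%) and the ATF4 element TGATGNAA in 1.94% (3.97%). By direction the ETS element was in 5 of 40 rows that rose and 8 of 61 that fell, the interferon element in 1 and 8, and the ATF4 element in 1 and 1. No test was made of these shares, and the motifs do not overlap one another in the window shown. That of *Gm11974*, the snoRNA host that rose most, holds 1 E-box, in capitals, in a window from RefSeq (GRCm38.p6).
*Gm11974*, chr11:6528711-6529010, minus strand: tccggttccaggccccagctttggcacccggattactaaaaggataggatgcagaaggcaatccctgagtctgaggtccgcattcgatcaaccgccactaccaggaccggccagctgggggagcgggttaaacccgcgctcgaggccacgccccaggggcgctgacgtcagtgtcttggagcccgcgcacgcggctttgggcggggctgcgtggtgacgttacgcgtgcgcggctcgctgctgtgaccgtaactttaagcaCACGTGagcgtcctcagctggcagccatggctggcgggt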

How the data were processed

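Total RNA of 4 EV and 4 KO samples of MCECs was sequenced, and the authors deposited 1 table of 8278 genes with a read count and an FPKM per library and gene. Per the study's methods, TopHat2 and Bowtie2 placed the reads on mm10 (GRCm38), with Cufflinks and DESeq2 both named for the test of expression. The submitters' processing notes name CASAVA and DESeq 1.6.3. How the authors made each count, and how strand and multiply matched reads were treated, is not given in the sources used here. The deposited table also holds the authors' fold changes and their adjusted p-value, which is under 0.05 in every row; it was used only to establish that the table is preselected. Of 8278 genes, 8252 were found in GENCODE M21 (GRCm38), all overlapping their interval there, and 5293 had the same start and end. Library totals were recovered from count, length and FPKM.

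Counts were tested with edgeR 4.0.16 (quasi-likelihood, TMM, R 4.3.3), with Benjamini-Hochberg adjustment over all 8278 genes, at an adjusted p under 0.01; the table's preselection makes these p-values descriptive of listed genes. Normalized counts are scaled to the geometric mean of the effective library sizes, and standard errors are the log2 fold change divided by the root of its F statistic. The common biological coefficient of variation was 2.82%. The fit was tested on simulated data. Read shares were compared by exact two-sided permutation over libraries (scipy 1.17.1). Near-identical coding genes were sought with blastn 2.17.0. List members were also matched through RefSeq and GENCODE M21 symbols, and sequences come from RefSeq (GRCm38.p6).

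Named rows were the 10 highest and 10 lowest fold changes among called rows without overlap of groups whose higher group reached 100 normalized counts, the 5 rows with most counts, all members of 6 lists (snoRNA hosts, imprinted, X inactivation, abundant nuclear and structural, microRNA hosts, developmental), the leading row of each gene type, and their neighbours. The members and lists were chosen with earlier results of these data known. Alternatives were DESeq2 1.42.0, other scalings, a replicate block, a filter at 10 counts, a looser threshold and leaving out each library. The values of 1 pseudogene pair are not reported here.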

Additional observations from a re-analysis of the deposited data

Results flagged for a closer look

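Within a group of 4 libraries, 1 library stood apart from the other 3 by Dixon's 95% limit in 7 of 94 groups tested over the named rows and *Hdac3*, where chance alone gives about 1 in 20, or 4.7. For *Dnm3os* this was KO replicate 3 with 9.37 normalized counts against 4.19 to 4.67 in the others, and without it the log2 fold change was -3.49 instead of -3.15. For *Neat1* it was KO replicate 2 with 1508 against 1321 to 1331 (-0.59 without it, -0.55 with it). For *Gm6736* it was KO replicate 4 with 476 against 426 to 429 (1.27 without it). EV replicate 4 stood apart for *Tctn2*, with 350 against 288 to 292 (-0.81 without it), and for *Snhg18*, with 305 against 339 to 342 (-0.61 without it). The remaining libraries were EV replicate 3 for *Mir22hg*, with 125 against 118 to 119 (-0.34 without it), and EV replicate 2 for *RP24-459A4.1*, with 400 against 432 to 438 (-0.43 without it). No direction changed.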

How the results depend on the processing

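No non-coding row changed sign under any of the 13 refits run. Leaving library totals unscaled moved the median log2 fold change of the whole table from 0.06 to -0.06, and the pseudogenes called higher from 62 to 35. Of the 293 rows called, DESeq2 left 251 (117 higher and 134 lower), a mean of at least 10 counts 241 (119 and 122), and leaving out 1 library gave 251 (without EV replicate 4) to 269 calls. With the replicate block, 137 non-coding rows rose and 154 fell (3866 and 4106 of all genes); same-numbered libraries did not deviate together (correlations from -0.107 to 0.119), so no pairing was assumed. Leaving out rows that share exonic bases and the 15 without M21 exons gave 92 higher and 80 lower, leaving out those with a near-identical coding gene (chosen after seeing the data) 84 higher and 132 lower, and requiring a log2 fold change of 1 gave 40 and 70; each tests fewer rows or asks for more. A mean of at least 10 counts left 10 antisense rows lower, 1 sense-intronic row higher, the *Trac* row uncalled (0) and 1 developmental row higher. DESeq2 gave 1 developmental row higher, and unscaled totals also gave 1. The list of microRNA hosts had only *Mir22hg* and *2810055G20Rik* in the table, not *Dnm3os* or *A330023F24Rik*, and DESeq2 gave 0 of them lower. Leaving out 1 library gave 1 to 2 sense-intronic rows higher and 0 to 1 for *Ighv14-4* (0 without EV replicate 3). It gave 0 to 1 of these listed microRNA hosts lower and 1 to 2 developmental rows higher. The difference in read share was -0.0168 percentage points without the 5 rows with most reads, and 0.267 to 0.32 when 1 library was left out, where the exact permutation p cannot fall below 0.0571; without *Yam1* (added after seeing the data) it was 0.0626. Depth limits 31 rows with a mean under 10 counts in both groups.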

Other observations

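Other rows that no list held had known identities. *Trac* fell from 4.73, 13.3, 13.5 and 19.4 normalized counts in EV to 4.19, 2.73, 1.87 and 3.73 in KO (log2 fold change -2.05, adjusted p = 1.1e-04 with edgeR), at a mean too low for the filter at 10 counts, and *Ighv14-4* from a range of 16.6 to 35.4 to a range of 10.9 to 16.8, with overlap and with the call lost without EV replicate 3. *Gt(ROSA)26Sor*, the antisense RNA of the Rosa26 locus used for mouse transgenes, rose from 153 ± 12 to 218 ± 29.1 counts (SD, n = 4 each; log2 fold change 0.51), and *Ptprv*, a receptor-type tyrosine phosphatase, from 81.7 ± 8.71 to 151 ± 21 (0.90). *5430416O09Rik*, the gene of the small protein SPAAR in RefSeq, had 3.54 to 7.28 counts in EV and at most 3.14 in KO. These were chosen after their values were seen.

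In 2 rows no read was counted in KO. *RP23-298I7.4* had 0, 7, 4 and 4 reads in the EV libraries, which makes it at least 5.45-fold lower, and *RP23-79G18.2* had 2, 2, 4 and 2, at least 3.63-fold lower, with a floor of 3 counts over the KO group and library sizes scaled by TMM. Both bounds cover counting error only.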
